A study of Manihot esculenta with 44 samples.

Results

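The gene described here is the cassava homologue of COR47, a dehydrin, with the gene ID MANES_05G140400. It was picked by that ID out of 34120 gene IDs, with its levels in these leaves already known, so its levels and differences are given as a description and without a test. The name is that of its best hit in Arabidopsis, which the deposited tables annotate as cold-regulated 47, and the gene was a single transcript in them. Leaves of the cassava (Manihot esculenta) variety KU50, widely grown in Southeast Asia, were sampled in 2019 in 2 fields in Vietnam and their RNA was sequenced. One was a general field in Hanoi, where the plants did not flower, and the other lay in the mountains of Bac Kan, where they flowered. All plants were raised from lignified stem cuttings, were of the same variety and received similar amounts of fertilizer. Hanoi was sampled on 24 May, 13 July, 7 August and 10 October, and Bac Kan on 31 May, 29 June, 26 July, 15 August, 11 September, 5 October and 30 October. Each of these 11 dates had 4 libraries, which made 16 for Hanoi and 28 for Bac Kan. Sites and dates follow the sample titles and descriptions, with which the sample characteristics disagree for many samples.

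Dehydrins are small, very hydrophilic proteins of the late embryogenesis abundant (LEA) class that have no fixed fold in solution. They gather in cells that lose water, through drought, cold, salt or seed ripening, and are thought to shield membranes and enzymes. In Arabidopsis, COR47 transcripts increase in the cold, during drying and after treatment with abscisic acid, the hormone of water shortage. There the gene is a target of the CBF transcription factors, which drive the main cold response.

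Levels below are sums per gene of FPKM, a fragment count corrected for length and library size, and these sums were rescaled to a total of 1000000 in each library. A mean is given ± SD of 4 libraries. Libraries are numbered by the order of their columns, and the number has no other meaning. Differences are log2(level + 1), as Bac Kan minus Hanoi or later minus earlier date, ± SE of a limma fit over the 11 dates. Of the gene IDs, 23405 reached a level of 1 in at least 4 of the 44 libraries and were tested. Read totals are unknown, and an estimate of relative depth gave 0.718 to 1.518 per library. The leaf markers were abundant, with a summed level of 8886 to 29815 per library over 9 genes matched to 5 of 7 markers, 1 of them listed at 0 throughout. Summed markers of the secondary wall (33 genes, 6 at 0 throughout), of cell division (13 genes, 0 at 0 throughout) and of the flower (19 genes, 3 at 0 throughout) reached at most 34.2, 16.0 and 70.7. Each site was 1 field, and neither the time of day of sampling nor whether a library stands for a plant of its own is in the labels. Site therefore cannot be told apart from field, day and hour.

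The COR47 homologue was among the most abundant transcripts of these leaves. It ranked between 27th and 351st of the 34120 gene IDs by level in the 44 libraries, and held between 0.0522 and 0.224 percent of the total as date means. Libraries ran from 386 to 2426 with a median of 1232. In bulk leaf samples, fewer cells of a type and less RNA per cell cannot be told apart.

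In Hanoi the gene was highest at the first date and lowest at the second. On 24 May its level was 1504, 1793, 1656 and 1693 in libraries 1 to 4 (1662 ± 120, n = 4). On 13 July it was 575, 386, 651 and 478 (522 ± 115, n = 4). All 4 July libraries lay below every other Hanoi library. The level on 7 August was 1280, 946, 860 and 1040 (1031 ± 181, n = 4). On 10 October it was 1292, 1375, 1775 and 1450 (1473 ± 211, n = 4). The October libraries overlapped those of May and lay above those of August. The highest date mean of Hanoi was 3.18 times the lowest.

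In Bac Kan the gene was low at the first dates, high on 26 July, and high again in October. Its level on 31 May was 887, 621, 678 and 1002 (797 ± 178, n = 4). On 29 June it was 644, 792, 934 and 1007 (844 ± 160, n = 4), and these libraries overlapped those of May. By 26 July it stood at 2426, 2142, 2012 and 1827 (2102 ± 252, n = 4). Every 26 July library exceeded every library of 29 June. The 15 August libraries had 1534, 1109, 1159 and 1184 (1247 ± 194, n = 4), with library 1 above the other 3. On 11 September the level was 987, 1008, 963 and 754 (928 ± 117, n = 4). These libraries were below all 4 of August. The 5 October libraries had 1748, 1850, 1584 and 1566 (1687 ± 136, n = 4). The last date, 30 October, had 2162, 2391, 2340 and 2064 (2239 ± 153, n = 4), the highest mean of the 11 dates. The highest date mean of Bac Kan was 2.81 times the lowest.

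**Figure D1:**
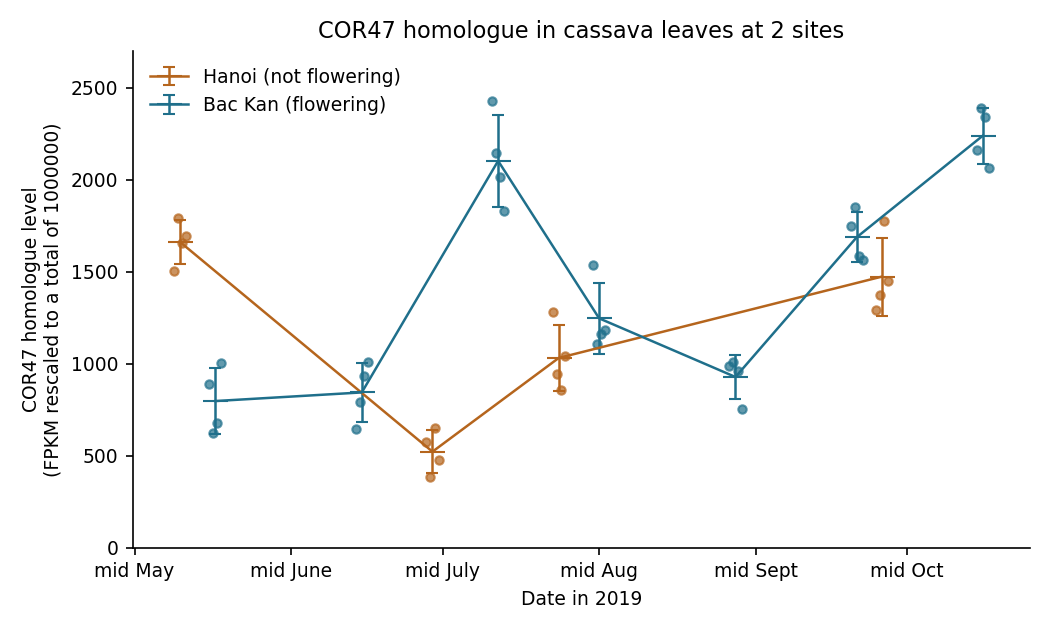
Level of the COR47 homologue (FPKM rescaled to a total of 1000000) in each of 44 libraries against the sampling date in 2019. Points are libraries, horizontal bars the means of 4 libraries and error bars ± SD; lines join the date means of Hanoi and of Bac Kan. Bac Kan has its peaks at 2102 on 26 July and 2239 on 30 October, and Hanoi has its lowest mean, 522, on 13 July.

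Ordered by their means, the dates ran from Bac Kan 30 October through Bac Kan 26 July, Bac Kan 5 October, Hanoi 24 May, Hanoi 10 October, Bac Kan 15 August, Hanoi 7 August, Bac Kan 11 September, Bac Kan 29 June and Bac Kan 31 May to Hanoi 13 July. The highest mean was 4.29 times the lowest. The libraries of neighbours overlapped in all 10 steps of this order, so no date can be set apart from the next by its libraries. Over larger distances the dates did separate: in 39 of the 55 pairs of dates all libraries of one lay above all of the other. The same count was not made for the other tested genes, so how usual it is cannot be said. No library of Hanoi exceeded 1793. All 4 Bac Kan libraries of 26 July and all 4 of 30 October were above that level, as was 1 of 5 October. The medians over libraries were nevertheless close, at 1286 in Hanoi and 1172 in Bac Kan. The coefficient of variation among the 4 libraries of a date was 6.81 to 22.4 percent, with a median of 14.4 percent.

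The site comparison asks how the gene differed at the flowering site from the non-flowering one, each Hanoi date being set against the nearest Bac Kan date. The direction was opposite in late May and in July, and in August and October the libraries of the sites overlapped. In late May the level was lower in Bac Kan, at 621 to 1002 on 31 May against 1504 to 1793 in Hanoi on 24 May, 7 days earlier. The difference was -1.08 ± 0.16, and the Hanoi mean was 2.08 times that of Bac Kan. All Bac Kan libraries were below all Hanoi libraries, which was so for 9.61 percent of the genes tested, and 18.8 percent of genes had a larger difference in either direction. The leaf marker sum moved with this contrast, at 9010 to 12329 in Hanoi against 17097 to 21531 in Bac Kan. The 10 most abundant genes held 13.2 to 15.3 percent of the total in Hanoi and 8.67 to 9.17 percent in Bac Kan. The part of either in the difference of the COR47 homologue was not tested.

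The July pair set Bac Kan on 26 July against Hanoi on 13 July, 13 days earlier. All Bac Kan libraries, at 1827 to 2426, were above all Hanoi libraries, at 386 to 651, as was the case for 7.46 percent of the genes tested, while 5.19 percent had them all below. The difference was 2.03 ± 0.16, a ratio of means of 4.02, and 246 genes, or 1.05 percent of those tested, had a larger difference in either direction. The date of the Bac Kan partner mattered for its size. With Bac Kan on 29 June, 14 days before the Hanoi date, the difference was 0.70 ± 0.16 and the libraries overlapped at 644 to 1007 against 386 to 651, where 17.1 percent of genes had separated libraries. The leaf marker sum was 15502 to 18080 in Bac Kan on 26 July and 20842 to 29815 in Hanoi. IDs of noncoding RNAs held 0.757 to 0.979 percent of the total in Bac Kan and 0.242 to 0.326 percent in Hanoi. Secondary wall markers summed to 21.8 to 34.2 on 26 July, against 11.9 to 24.0 on 13 July. Their part in the difference was not tested.

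In August the gene stood at 1109 to 1534 in Bac Kan on 15 August and at 860 to 1280 in Hanoi on 7 August. The libraries overlapped, with a difference of 0.28 ± 0.16, while 7.66 percent of the genes tested had all Bac Kan libraries above and 9.28 percent all below. In October it stood at 1566 to 1850 in Bac Kan on 5 October and at 1292 to 1775 in Hanoi 5 days later. These libraries overlapped as well, with a difference of 0.20 ± 0.16, while 11.8 percent of genes had all Bac Kan libraries above and 16.1 percent all below. In August 60.8 percent of the genes tested, and in October 75.6 percent, had a larger difference than the COR47 homologue. Library composition did differ between the sites at both dates. In August the leaf marker sum was 17371 to 20948 in Bac Kan against 14874 to 16727, noncoding IDs held 0.362 to 0.686 against 0.182 to 0.279 percent, and the 10 most abundant genes 7.21 to 8.10 against 9.50 to 10.6 percent. In October noncoding IDs held 0.468 to 0.776 percent in Bac Kan against 0.138 to 0.229. The leaf marker sum was then 11519 to 15041 against 18895 to 24751, and the relative depth 0.771 to 0.913 against 1.265 to 1.518. Their part in either difference was not tested.

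Within the seasons, neighbouring dates were mostly apart. In Hanoi all 3 steps separated the libraries. From 24 May to 13 July the difference was -1.69 ± 0.16, where 16.9 percent of the genes tested had separated libraries. It was 0.99 ± 0.16 from 13 July to 7 August (background 13.4 percent) and 0.52 ± 0.16 from there to 10 October (25.1 percent). In Bac Kan 5 of 6 steps did so, the exception being 31 May to 29 June at 0.09 ± 0.16 (14.8 percent). The step to 26 July was the widest at 1.33 ± 0.16 in 27 days, a ratio of means of 2.49, where 13.1 percent of genes had separated libraries. It was followed by -0.76 ± 0.16 to 15 August (15.7 percent) and -0.42 ± 0.16 to 11 September (11.9 percent). Both October steps were upward, with 0.87 ± 0.16 to 5 October (11.6 percent) and 0.41 ± 0.16 to 30 October (12.3 percent). Library composition moved with the widest steps. The leaf marker sum went from 9010 to 12329 on 24 May to 20842 to 29815 on 13 July in Hanoi. Between 29 June and 26 July in Bac Kan, noncoding IDs went from 0.211 to 0.263 percent of the total to 0.757 to 0.979 percent, and the 10 most abundant genes from 7.67 to 8.53 percent to 11.6 to 12.1 percent. Their part in the steps of the COR47 homologue was not tested.

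First and last dates were 152 days apart in Bac Kan and 139 days apart in Hanoi, which had no late October date. The sites also began apart, with Bac Kan lower in late May (-1.08 ± 0.16). In the October pair of the site comparison their libraries overlapped (0.20 ± 0.16). The changes over the season are therefore given for each site on its own, and a difference in outcome between the sites was not tested. Bac Kan on 30 October was above 31 May by 1.51 ± 0.16, a ratio of means of 2.81, with libraries of 2064 to 2391 against 621 to 1002. Separated libraries were seen for 25.0 percent of the genes tested in this contrast. Hanoi on 10 October differed from 24 May by -0.18 ± 0.16, and its libraries overlapped at 1292 to 1775 against 1504 to 1793, where 33.9 percent of genes had separated libraries. The leaf marker sum was 8886 to 9214 in Bac Kan on 30 October, against 17097 to 21531 on 31 May. Its part in the late level of the COR47 homologue was not tested.

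The annotation held 5 other dehydrin genes, and by its date mean the COR47 homologue was second among the 6 on 10 of 11 dates and first on 30 October. MANES_09G138100 and MANES_08G154500 have HIRD11 as best hit, a small Arabidopsis dehydrin known to bind metal ions. MANES_09G138100 ran from 1971 to 10447 and MANES_08G154500 from 35.3 to 202. XERO1 (MANES_02G098200) did not exceed 22.3 and was listed at 0 in 13 libraries. MANES_11G091500, another dehydrin, did not exceed 12.3 and was listed at 0 in 23. MANES_S051900 was listed at 0 in 43 of 44 libraries, with 3.54 in the other, and was not tested. FPKM are per length, so the share of the COR47 homologue in the dehydrin sum can be given, and it moved from 12.4 to 50.2 percent of that sum. As date means the share was 14.7 to 15.5 percent on the first 3 Hanoi dates and 39.1 percent on 10 October. In Bac Kan it was 20.5 percent on 31 May, 35.7 on 26 July, 17.64 on 11 September and 49.2 on 30 October. On that last date the COR47 homologue and MANES_09G138100 were at 2239 ± 153 and 2226 ± 135.

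**Figure D2:**
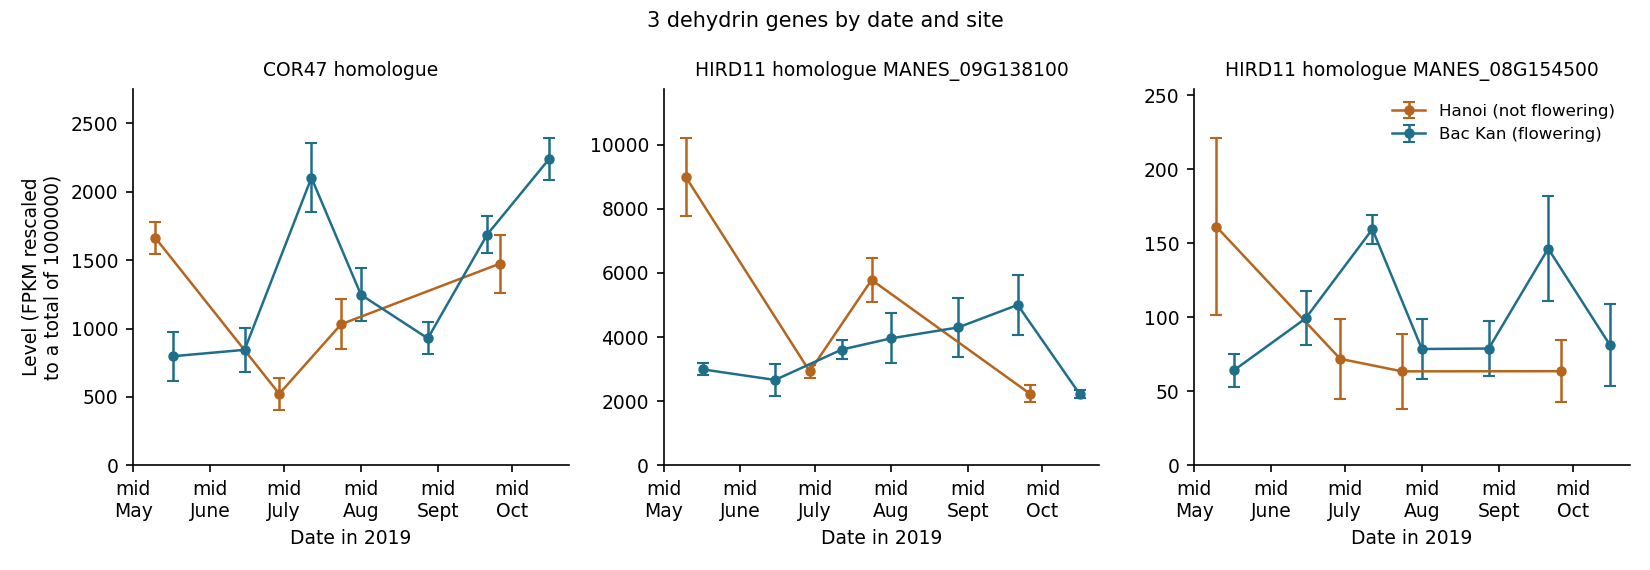
Levels (FPKM rescaled to a total of 1000000) of the COR47 homologue and of the HIRD11 homologues MANES_09G138100 and MANES_08G154500 against the date in 2019, as means ± SD of 4 libraries in Hanoi and Bac Kan; each panel has its own scale. On 24 May MANES_09G138100 had its highest mean, 8985, and by 30 October it stood at 2226.

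MANES_09G138100 had the sign of the COR47 homologue in late May, July and October, with other sizes. In August its sign was opposite to that of the COR47 homologue, whose libraries then overlapped (0.28 ± 0.16). In late May Bac Kan had 2714 to 3124 and Hanoi 7937 to 10447, and it was called lower in Bac Kan (-1.58 ± 0.15, limma adjusted p = 2.31e-10). In July it was at 3374 to 4045 against 2686 to 3180 without a call (0.30 ± 0.15, limma adjusted p = 0.233), although the libraries did not overlap. In August it was called lower in Bac Kan, at 2986 to 4783 against 5103 to 6554 (-0.56 ± 0.15, limma adjusted p = 0.00771). That call ended in a fit of the 2 groups alone (limma adjusted p = 0.188) and when library 2 of 15 August was left out (limma adjusted p = 0.0533). In October it was called higher, at 4164 to 6262 against 1971 to 2510 (1.16 ± 0.15, limma adjusted p = 1.74e-07), while the COR47 homologue overlapped between the sites.

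MANES_08G154500 was the dehydrin whose July difference had the direction of the COR47 homologue and a call. Bac Kan had 146 to 170 and Hanoi 35.8 to 101 (1.23 ± 0.30, limma adjusted p = 0.00568). A fit of the 2 groups alone gave no call (limma adjusted p = 0.056), nor did leaving out library 2 of 13 July (limma adjusted p = 0.0533). In late May it was called lower in Bac Kan, at 51.5 to 74.5 against 72.5 to 202 (-1.23 ± 0.30, limma adjusted p = 0.0017), with overlapping libraries. It was called higher in October, at 120 to 198 against 40.0 to 90.3 (1.22 ± 0.30, limma adjusted p = 0.00213), and was not called in August (0.36 ± 0.30, limma adjusted p = 0.496). XERO1 was called in late May, higher in Bac Kan with 0.729 to 22.3 against 0 to 3.07 (limma adjusted p = 0.00889). Its libraries overlapped, and the call ended in a fit of the 2 groups alone (limma adjusted p = 0.128) and when library 2 of 31 May was left out (limma adjusted p = 0.0732). MANES_11G091500 was not called in any of the 4 pairs.

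An F test over the 4 pairs asked whether the site difference of a gene changed with the date, and it called 38.1 percent of the genes tested. It was called for MANES_09G138100 (limma adjusted p = 9.8e-12), MANES_08G154500 (limma adjusted p = 2.16e-05) and XERO1 (limma adjusted p = 0.02), and not for MANES_11G091500 (limma adjusted p = 0.818). The COR47 homologue is left out of this count, since its own pattern led to its choice. Over the 11 date means its level had a Pearson r of 0.55 with MANES_08G154500, 0.13 with MANES_09G138100, 0.20 with MANES_11G091500 and -0.22 with XERO1. Among the 44 libraries after subtraction of the date means, r was 0.32 with MANES_08G154500 and 0.55 with MANES_09G138100. These values describe the libraries, and library composition is shared by all genes of a library.

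**Figure D3:**
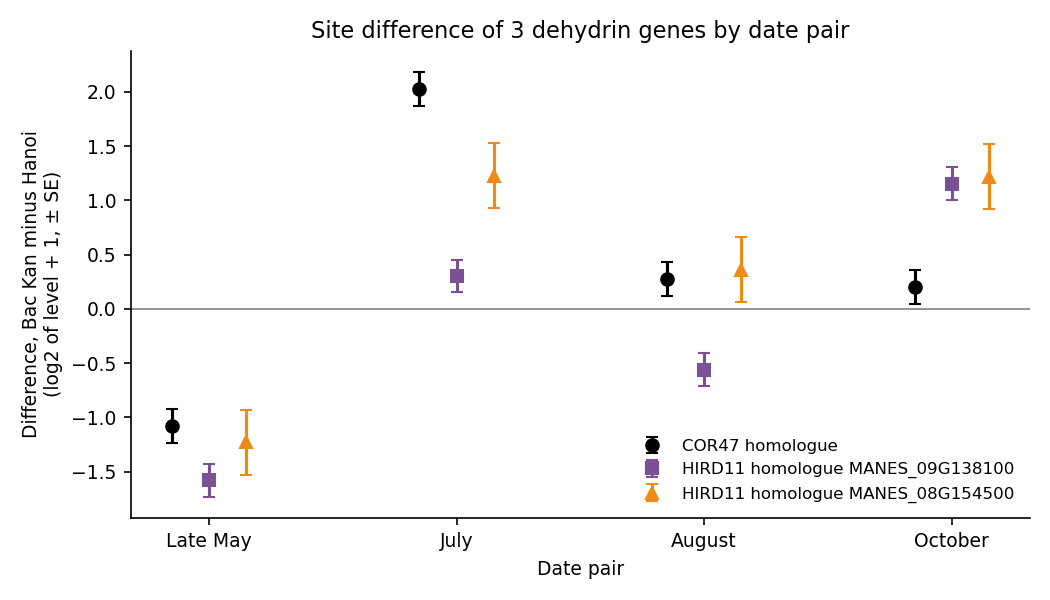
Site difference, Bac Kan minus Hanoi, as log2(level + 1) ± SE, for the COR47 homologue and both HIRD11 homologues in the 4 date pairs. All 3 lie below 0 in late May, the COR47 homologue is farthest above 0 in July (2.03), and in October the HIRD11 homologues (1.16 and 1.22) lie above it (0.20).

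Dehydrin and LEA genes, and genes of cold, abscisic acid and heat shock, were taken from lists of Arabidopsis genes. They were matched by best hit, leaving out the COR47 homologue. Where a count of calls is also given for an alternative fit, the share of all tested genes called in that fit is not given. Heat shock is not among the responses given for COR47 above. The dehydrin and LEA list had 14 tested genes. In late May 2 were higher and 8 lower in Bac Kan, against a background of 16.1 percent of all tested genes higher and 12.6 percent lower. Their median difference was -1.22, beside 0.06 over all tested genes. With the COR47 homologue lower at that date were SAG21 (MANES_01G220400), a LEA protein known from senescing Arabidopsis leaves, at 16.2 to 111 against 283 to 351 (-2.78 ± 0.53, limma adjusted p = 9.75e-05), and the seed LEA gene EM6 (MANES_09G106800), at 0 to 2.205 against 4.17 to 7.205 (limma adjusted p = 0.000851). The EM6 call was lost with a pseudocount of 0.1 (limma adjusted p = 0.0519). ECP63 (MANES_08G018000), an embryonic LEA gene, was higher, at 27.1 to 47.0 against 0 to 11.1 (limma adjusted p = 1.61e-05).

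In July, when the COR47 homologue in Bac Kan was at 4.02 times the Hanoi mean, the same list had 2 genes higher and 0 lower, with 5.17 and 3.66 percent of all tested genes higher and lower. One was MANES_08G154500. The other, LEA4-5 (MANES_09G034800), had overlapping libraries at 0.936 to 7.00 against 0 to 1.53 (limma adjusted p = 0.0494), and its call ended in 11 of 15 alternatives. The list's median was 0.27 beside 0.06. In August 1 gene was higher and 1 lower, with a background of 6.40 and 8.11 percent, and the median was 0.29 beside -0.06. The higher one was LEA14 (MANES_05G028700), at 4.12 to 14.1 against 0 to 0.746 (limma adjusted p = 0.0107). The other LEA14 homologue, MANES_01G252100, lay the other way without a call. It was at 0 to 1.08 against 2.76 to 6.24 (-1.67 ± 0.67, limma adjusted p = 0.0898), and its libraries did not overlap. In October 4 were higher and 2 lower, with a background of 10.5 and 13.6 percent, and the median was 0.14 beside -0.05. LEA3 (MANES_05G061300) was lower, at 11.3 to 21.2 against 227 to 409 (-4.10 ± 0.36, limma adjusted p = 3.16e-11), and ECP63 was higher, at 28.4 to 58.8 against 0 to 0.575.

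The list of cold regulators and their targets had 46 tested genes. In late May 4 were higher and 13 lower, which is 37.0 percent called beside 28.7 percent of all tested genes, with a median of -0.34. A homologue of CBF4 (MANES_06G143100), a CBF factor that Arabidopsis induces in drought, was lower in Bac Kan, as was the COR47 homologue. It was at 0 to 1.12 against 4.22 to 28.8 (-3.39 ± 0.54, limma adjusted p = 6.82e-06), and was picked for its large called difference. Other CBF4 homologues were tested and are not shown, among them the more abundant MANES_14G029600 (mean level 7.52 beside 2.54 over all libraries). Of the GolS1 homologues tested, which encode the first enzyme of raffinose sugar synthesis, MANES_15G003200 and MANES_05G012000 were higher, at 16.6 to 30.7 against 0 to 1.44 and at 91.8 to 251 against 7.98 to 9.28. In July 2 were higher and 0 lower, with a median of 0.10. At 4.35 percent, the called share was below the 8.84 percent of all tested genes, and it was 5 genes without library 1 of Hanoi 13 July. The 2 were ELIP1 (MANES_15G033100), a light-stress protein of the chloroplast, and RCI2B (MANES_09G181700), a small membrane protein. RCI2B was at 130 to 164 against 48.9 to 75.5 (1.22 ± 0.20, limma adjusted p = 8.19e-05), and ELIP1 at 278 to 448 against 56.8 to 108 (2.11 ± 0.32, limma adjusted p = 1.92e-05).

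In August, when the COR47 homologue overlapped between the sites, 4 cold genes were higher and 4 lower, with a median of -0.02. That is 17.39 percent called, near the 14.5 percent of all tested genes. The CBF4 homologue MANES_06G143100 was lower again, at 0 to 0.791 against 1.43 to 22.9 (-2.74 ± 0.54, limma adjusted p = 0.000327). GolS2 (MANES_08G109300) was higher, at 25.4 to 74.5 against 1.84 to 16.0 (limma adjusted p = 9.11e-07). DREB2C (MANES_08G096900), a dehydration-response factor, was higher at 3.33 to 10.8 against 0 to 2.22 (limma adjusted p = 0.0241), a call that ended in a fit of the 2 groups alone (limma adjusted p = 0.0909) and when library 3 of either group was left out. The GolS2 homologue MANES_09G179100 and the DREB2C homologue MANES_07G135300 were tested too and are not shown. The latter was more abundant than the DREB2C homologue given (mean level 24.1 beside 5.16 over all libraries). In October 9 cold genes were higher and 7 lower, with a median of -0.08, or 34.8 percent called beside 24.2 percent of all tested genes. Without library 1 of Bac Kan 5 October 10 were called in place of 16. ELIP1 stood at 1546 to 1955 against 64.6 to 105 (4.28 ± 0.32, limma adjusted p = 5.32e-13), and the GolS1 homologue MANES_05G012000 at 130 to 363 against 0.586 to 4.59 (limma adjusted p = 9.71e-10).

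The abscisic acid list had 77 tested genes. In late May 18 were higher and 18 lower, with a median of 0.01, and 46.8 percent were called beside 28.7 percent of all tested genes. With only the 2 groups in the fit 23 were called in place of 36. With the COR47 homologue lower in Bac Kan were NCED3 (MANES_15G102000), the key enzyme of abscisic acid synthesis, at 0 to 3.22 against 12.7 to 59.1 (limma adjusted p = 3.51e-09), and RD26 (MANES_03G114200), a NAC factor of the drought response, at 0 to 4.36 against 18.18 to 50.6 (-4.08 ± 0.50, limma adjusted p = 5.22e-08). NCED3 and RD26 were picked for their large called differences, and none of the 18 higher genes was among those picked. The other tested homologues of NCED3 and RD26 are not shown. Among them is the more abundant NCED3 homologue MANES_03G083500 (mean level 8.30 beside 4.47 over all libraries). MANES_06G160100, one of several homologues of RD22, a gene named for its response to drying, had the direction of the COR47 homologue in late May and July. It was picked for its large called differences, and the share of all tested genes with both directions was not counted. Other RD22 homologues were tested, among them the more abundant MANES_03G066300 and MANES_03G065700 (mean levels 1637 and 426 beside 47.4 over all libraries). Neither of them is shown here. The homologue MANES_06G160100 is described next. Its level was lower in Bac Kan in late May, at 9.10 to 26.2 against 144 to 290 (limma adjusted p = 1.57e-09). In July it was higher, at 116 to 153 against 30.0 to 45.7 (1.88 ± 0.36, limma adjusted p = 0.000405). In July 13 genes of the list were higher and 6 lower, with a median of 0.24, which is 24.7 percent called beside 8.84 percent. This count of 19 was 8 without library 2 of Bac Kan 26 July, 11 or 12 without any 1 of 4 other libraries, and 9 with only the 2 groups in the fit. The RD22 homologue MANES_03G128100 was lower then (limma adjusted p = 0.0477), a call lost in 10 of 15 alternatives. ABI1 (MANES_16G109500), a phosphatase that restrains abscisic acid signalling, was higher at 24.4 to 31.8 against 4.23 to 22.4 (limma adjusted p = 0.0179). That call ended in a fit of the 2 groups alone and when library 3 or library 4 of 13 July was left out.

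In August 17 abscisic acid genes were higher and 10 lower, with a median of 0.20 and 35.1 percent called beside 14.5 percent of all tested genes. CYP707A1 (MANES_10G067700), which breaks the hormone down, was lower at 0 to 0.627 against 10.4 to 21.3 (-3.77 ± 0.47, limma adjusted p = 1.84e-07). In October 29 were higher and 13 lower, with a median of 0.44 and 54.5 percent called beside 24.2 percent. The receptor gene PYL4 (MANES_09G110800) was lower at 6.796 to 14.6 against 152 to 256 (-4.19 ± 0.39, limma adjusted p = 1.47e-10), and the phosphatase gene PP2CA (MANES_07G119400) was higher at 59.9 to 100.3 against 3.78 to 11.0 (3.36 ± 0.47, limma adjusted p = 7.32e-07). The COR47 homologue stood at 1566 to 1850 and 1292 to 1775 in the same libraries.

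The heat shock list, whose proteins keep others from aggregating in the heat, had 53 tested genes. In July 22 were higher and 0 lower in Bac Kan, with a median of 1.25 beside 0.06 over all tested genes and 41.5 percent called beside 8.84 percent. The regulator HSFA2 (MANES_03G049500) stood at 27.9 to 43.97 against 0 to 0.912 (4.72 ± 0.59, limma adjusted p = 9.01e-07). In late May 11 were higher and 7 lower, with a median of 0.02, and the 34.0 percent called were near the 28.7 percent of all tested genes. The same HSFA2 homologue was lower then, at 3.39 to 14.6 against 22.7 to 102 (-2.63 ± 0.59, limma adjusted p = 0.000758). This homologue thus had the directions of the COR47 homologue at both dates. It was picked for its large called differences, and the share of all tested genes with both directions was not counted. Other HSFA2 homologues were tested and are not shown here. In August 7 were higher and 7 lower, with a median of -0.15 and 26.4 percent called beside 14.5 percent. In October 40 were higher and 2 lower, with a median of 2.87 and 79.2 percent called beside 24.2 percent, while the COR47 homologue differed by 0.20. HSP90.1 (MANES_06G152800), a chaperone, was at 134 to 1466 against 2.56 to 3.08 on that date (limma adjusted p = 9.02e-14).

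**Figure D4:**
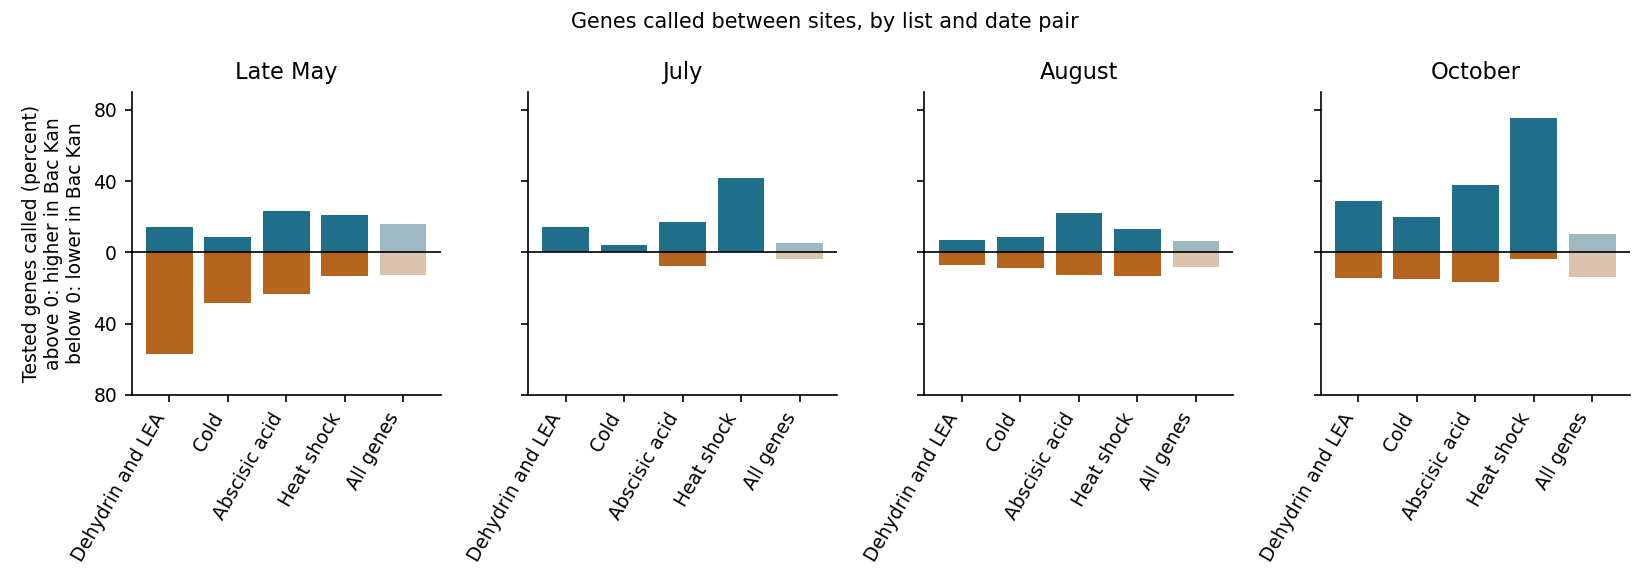
Percent of tested genes called higher (above 0) and lower (below 0) in Bac Kan (limma, adjusted p under 0.05) for the 4 lists, without the COR47 homologue, and for all tested genes, in the 4 date pairs. In July, where 8.84 percent of all tested genes were called and 5.17 percent were higher, the heat shock list had 22 of 53 higher. In late May, where 12.6 percent of all tested genes were lower, the dehydrin and LEA list had 8 of 14 lower.

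Likeness to the COR47 homologue was measured by the Pearson r of log2(level + 1) over the 11 date means, among 5812 named genes with a highest date mean of at least 5 and a range of at least 1. The median r was 0.06, and 1 gene reached 0.9. It was STRS1 (MANES_17G010800), an RNA helicase, with r = 0.907, whose date means ran from 59.4 in Hanoi on 13 July to 153 in Bac Kan on 30 October, the lowest and the highest date of the COR47 homologue. Next came ECT8 (MANES_16G048600), a protein of the family that reads methylated RNA, with 0.825, NF-YC10 (MANES_04G022800), a subunit of a transcription factor, with 0.818, and BOB1 (MANES_06G160000), a small chaperone, with 0.803. SYP22 (MANES_04G094900), a syntaxin of the vacuole, had 0.799. ANAC087 (MANES_09G143800), a NAC factor, had 0.797, VPS2.1 (MANES_03G038100), a protein of membrane sorting, 0.796, and GALT1 (MANES_05G102300), a galactosyltransferase, 0.793. Of these 8 genes, 6 had their lowest mean in Hanoi on 13 July, which their choice by likeness to the COR47 homologue favours. The same holds for the lowest and highest dates of STRS1. The most opposite were ENODL17 (MANES_11G067200) with -0.854, MIA40 (MANES_04G160900), a protein of import into mitochondria, with -0.845, and the chloroplast thioredoxin TRX-M4 (MANES_18G086200) with -0.844.

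**Figure D5:**
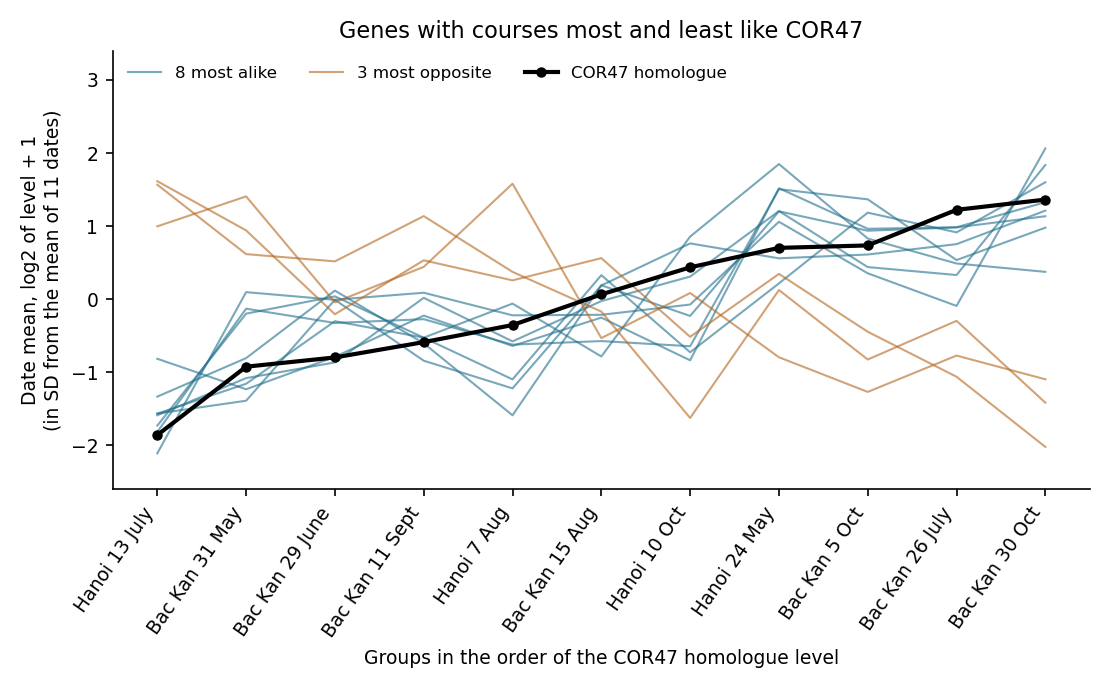
Date means of log2(level + 1), in SD from each gene's mean of 11 dates, for the COR47 homologue, the 8 genes most like it and the 3 most opposite, with the dates in the order of the COR47 level. STRS1 follows it with r = 0.907 and ENODL17 opposes it with -0.854; the genes were picked for this likeness.

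The list depended on the measure. By Spearman rho 3 of the 8 genes were again among the 8 most alike, and by the r within dates, over 44 libraries after subtraction of the date means, 0 were. Within dates the most alike was HSC70-1 (MANES_07G114800), a chaperone of the cytosol, with r = 0.675. It was followed by PLL5 (MANES_04G034600), a phosphatase, with 0.610, MYB73 (MANES_13G118400) with 0.599, the chaperone Hsp90.4 (MANES_05G203300) with 0.577 and the mitochondrial protease ftsh10 (MANES_01G171200) with 0.570. Over the lists, the median r with the COR47 homologue over 11 date means was 0.20 for the dehydrin and LEA list, 0.24 for the cold list, 0.16 for the abscisic acid list and 0.31 for the heat shock list, beside 0.07 for all 23404 other tested genes. These medians are over all tested members, without the limits on level and range set above.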

How the data were processed

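RNA was extracted from leaves kept in RNAlater, and cDNA libraries amplified by PCR were sequenced as read pairs, per the labels' protocols. Reads were aligned with TopHat2, per the submitters' processing notes; the quantifier, genome build, annotation and any further normalization are not given in the sources used here. The deposited values are FPKM per transcript in 11 tables, 1 per site and date, with 41491 transcripts each, so every comparison crosses tables. Site and date come from titles and descriptions; the sampling site and date in the characteristics disagree with these for many samples and were not used. One further column, a copy of a 5 October column in the 30 October table, was not used. Columns carry no replicate number.

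Transcript FPKM were added up by gene ID, rescaled to a total of 1000000 per library and analysed as log2(x + 1). Genes at 1 or more in at least 4 libraries were tested with limma 3.58.1 (R 4.3.3), with trended empirical Bayes over the 11 groups (33 residual degrees of freedom), Benjamini-Hochberg adjustment over 23405 genes, a threshold of 0.05 and two-sided tests. The script was tested on simulated data. Nothing says that samples came from separate plants, so p-values measure only the spread between these samples, which may be technical. The F test over the 4 pairs was chosen after seeing the data. Relative depth came from the steps between low values of 3547 genes, and deposited FPKM summed to 664145 to 804362 per library; read counts were not analysed here, so no counting error can be given.

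The gene and all lists were chosen with earlier results of these data known. The rule for named genes took every dehydrin, up to 3 called members of each list and pair with the largest difference, separated libraries and a higher mean of 5 or more, and the genes most and least like the COR47 homologue (8, 3 and, within dates, 5); LEA4-5 in July was named, and its alternatives were run, after its values were seen. Close copies of a gene can share a best hit. Alternatives were other scalings, pseudocounts of 0.1 and 5, no filter, the most abundant transcript, only the groups compared, leaving out each library, another July partner and other measures of likeness. None of the IDs matched the reference gene table, so no positions or sequences are given.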

Additional observations from a re-analysis of the deposited data

Results flagged for a closer look

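The site difference of the COR47 homologue had opposite directions at 2 dates, at -1.08 (log2, Bac Kan minus Hanoi) in late May and 2.03 in July, with separated libraries in each. The difference between these was not tested, since the gene was chosen for its pattern. The site difference of other dehydrins changed between the 4 pairs by the limma F test, with adjusted p = 9.8e-12 for MANES_09G138100, adjusted p = 2.16e-05 for MANES_08G154500 and adjusted p = 0.02 for XERO1. It was not called for MANES_11G091500 (adjusted p = 0.818), and 38.1 percent of all tested genes were called.

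In 8 of the 56 groups of 4 libraries examined for the dehydrins, 1 library lay far from the other 3, by the gap to the nearest relative to the whole range. In all 8 the other 3 libraries were listed at 0, so any value above 0 in the remaining one meets this measure. The 1 in 20 that chance gives for continuous values does not apply to them. XERO1 (MANES_02G098200) had such a library at 3.07 in Hanoi on 24 May and at 0.448 on 7 August. MANES_11G091500 had one at 1.26 in Hanoi on 24 May, 1.93 on 13 July and 3.81 on 7 August, and at 2.502 in Bac Kan on 31 May and 8.10 on 26 July. MANES_S051900 had one at 3.54 in Bac Kan on 29 June. None of these groups was of the COR47 homologue.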

How the results depend on the processing

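The differences of the COR47 homologue kept their sign in every alternative run, and differed by less than the spread between libraries except with Bac Kan 29 June as the July partner (0.698). Leaving out 1 library gave -1.202 to -0.972 in late May, 1.89 to 2.14 in July, 0.173 to 0.386 in August, 0.143 to 0.295 in October, 1.40 to 1.63 over the Bac Kan season and -0.274 to -0.122 over the Hanoi season. Median-ratio scaling moved the median gene by -0.148 over the Bac Kan season and by -0.132 over the Hanoi season, where the COR47 homologue then differed by 1.35 and -0.33. Deposited FPKM moved it by -0.123 over the Bac Kan season.

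Counts of called genes moved most in the dehydrin and LEA, cold and abscisic acid lists. Several of these moves came with only the groups compared, a fit with fewer samples. With that fit the calls went from 10 to 6 (dehydrin and LEA, late May), 2 to 0 (the same, July), 36 to 23 (abscisic acid, late May) and 19 to 9 (abscisic acid, July). The July count of 2 for dehydrin and LEA genes was 1 with deposited FPKM, a pseudocount of 5, no filter or the most abundant transcript; the cause was not tested. Without 1 library it was 0 to 2, with 0 without library 2 of Hanoi 13 July and 1 without library 1 or 3 of that date or library 1, 2 or 3 of Bac Kan 26 July. The August count of 2 was 1 to 3, with 1 without library 2 of Bac Kan 15 August. The cold list had 2 to 5 calls in July (5 without library 1 of Hanoi 13 July) and 10 to 16 in October (10 without library 1 of Bac Kan 5 October). The abscisic acid list in July had 8 to 19, with 8 without library 2 of Bac Kan 26 July, 11 without library 1 or 3 of that date or library 2 of Hanoi 13 July, and 12 without library 4 of the latter. The share of all tested genes called in each of these alternatives is not given, so these counts have no background beside them. Of the 8 genes most like the COR47 homologue, 3 were shared with Spearman rho and 0 with r within dates. No paired analysis was possible because the columns carry no replicate number. Read totals are unknown, so the error of low values cannot be given.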
